A study of Mus musculus with 6 samples.

Results

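Of the 6 arrays of differentiating mouse embryonic stem (ES) cells, the 2 whose titles end in replicate 3, shCtrl 3 and shAtad2 3, were set against the 4 whose titles end in replicate 1 or 2, within each hairpin group. The 2 arrays were selected on these same measured values, since earlier results of these data had shown them to stand apart, so everything below on how far they lay from the others is a description with no test. The cells were 46C ES cells (129SV) that carried a tag on Atad2 in both groups. They had been transduced with a puromycin-selectable lentivirus that expressed a short hairpin RNA against Atad2 (shAtad2) or an inactive control hairpin (shCtrl), were kept as selected pools rather than single clones, and were sampled after 3 days in serum medium lacking leukaemia inhibitory factor (LIF), which holds mouse ES cells undifferentiated. Total RNA was read on Illumina MouseWG-6 v2.0 beadchips, on which each probe gives the mean brightness of its beads.

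Whether the replicates were separate cultures is not stated, and neither is which arrays shared a chip or a day, so culture, RNA handling and chip cannot be told apart in what separates the third arrays. The spread between replicates may be technical. The median unnormalized intensity lay between 130.0 and 138.9 on the 6 arrays, and between 17792 and 18513 of 45281 probes were above background (detection p-value under 0.05), the highest number being on shCtrl 3. Levels are given as background-corrected, quantile-normalized log2 intensity. The targeted gene, Atad2, read 6.28, 6.48 and 6.39 on the shCtrl arrays and 5.69, 5.64 and 5.41 on the shAtad2 arrays, so it was lower in each shAtad2 array and its replicate 3 shift was small, -0.12 ± 0.13 (SE). Actb (-0.10) and Gapdh (-0.09) shifted as little.

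When LIF is withdrawn, mouse ES cells first shut down the naive pluripotency network, pass through a state like the early epiblast, and then, under Wnt, Nodal and BMP signals, some of them switch on the genes of the primitive streak, the site in the embryo where mesoderm and definitive endoderm arise. Cells short of oxygen stabilise the transcription factor HIF, which binds DNA at a short core motif and raises glycolytic enzymes, angiogenic factors and its own inhibitors, the Egln prolyl hydroxylases.

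The third arrays resembled each other more than they resembled the other arrays of their own hairpin. Over the 10726 genes measured, the root mean square difference was 0.29 between replicates 1 and 2 of the same hairpin, in both groups, and 0.36 between replicate 1 or 2 of different hairpins. Between shCtrl 3 and shAtad2 3 it was also 0.36, whereas a replicate 3 array differed from the other arrays of its hairpin by 0.46 to 0.48. In counts, 65 and 72 genes lay at least 2-fold apart between replicates 1 and 2 of a hairpin, 129 between the third arrays, and 372 to 434 between a replicate 3 array and another array of the same hairpin.

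**Figure D1:**
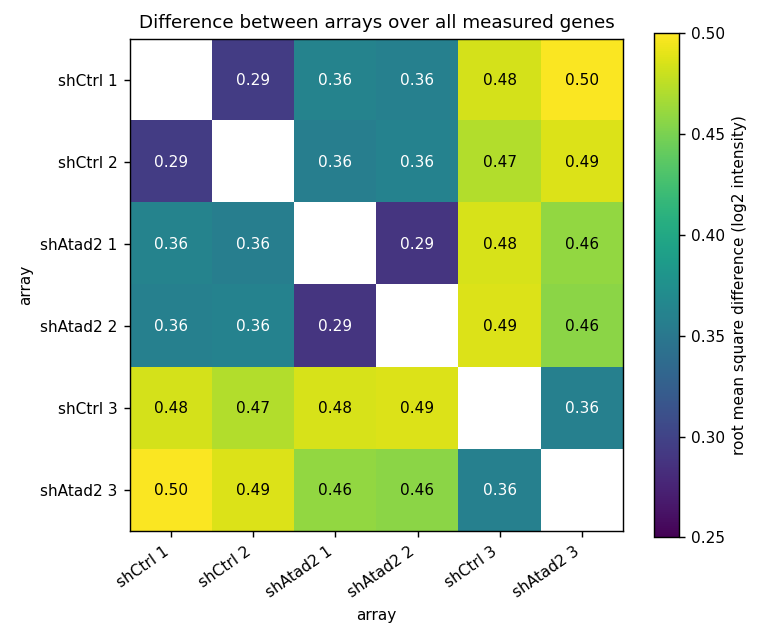
Root mean square difference in log2 intensity over 10726 genes for each pair of arrays, with the third replicates placed last on both axes. The third arrays lie 0.36 from each other and 0.46 to 0.50 from the other 4.

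The shift of a gene is its level on the third array minus the mean of replicates 1 and 2 of the same hairpin. Across genes, which are not independent replicates, the shifts of the 2 groups, which share no array, correlated at Pearson r = 0.56 and Spearman rho = 0.44, and 64.1% of genes shifted the same way. The median absolute shift was 0.26 in shCtrl and 0.24 in shAtad2, beside a median gap between replicates 1 and 2 of 0.16 and 0.15. A gene was counted as shifted when the shift was at least 2-fold (1 on the log2 scale) in both groups in the same direction and the third array lay beyond both others in each. Over all 10726 genes, the third array lay above both others in both groups for 2408 (22.5%) and below both for 2360, and the counts of that kind given below for a list stand beside these shares. By the 2-fold count 72 genes (0.671%) were higher and 87 (0.811%) lower, 159 in all (1.48%), and 1 gene, Nod2, shifted 2-fold in opposite directions. In 158 of the 159 the smaller of the 2 shifts exceeded the larger of the 2 gaps between replicates 1 and 2. The 2-fold limit nearly fixed that count, so nothing is read from it. Of all genes only 72 in shCtrl and 65 in shAtad2 had a 2-fold gap between replicates 1 and 2. Just inside the limit lay Nxt2 (1.05 in shCtrl and 1.00 in shAtad2), Car4 (1.00 and 1.49) and Pygl (1.07 and 1.00), and just outside lay Irx5 (-0.998 and -1.49) and the loci Gm20767 (-0.996 and -1.32) and 1700007K13Rik (-0.994 and -1.22).

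By measured values the lower genes moved further. At 3-fold or more in both groups, 9 genes were higher and 26 lower, and at 4-fold or more 2 were higher and 9 lower. Of the 87 lower genes, 55 were above background on every array and 18 on neither replicate 3 array. Of the 72 higher genes, 62 were above background on every array and 4 on none of the other arrays. Such genes passed the filter through the side on which they were bright. Among the 2-fold lower genes named below, a bound is given for those not above background on 1 or both of the third arrays. It is the mean of the bright arrays over that of the dim ones, with each dim array held at no less than the lowest signal above background on it. Where a gene had further probes above background, 68 of 72 such probes shifted in the same direction as the probe used and 36 by at least 2-fold on average.

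**Figure D2:**
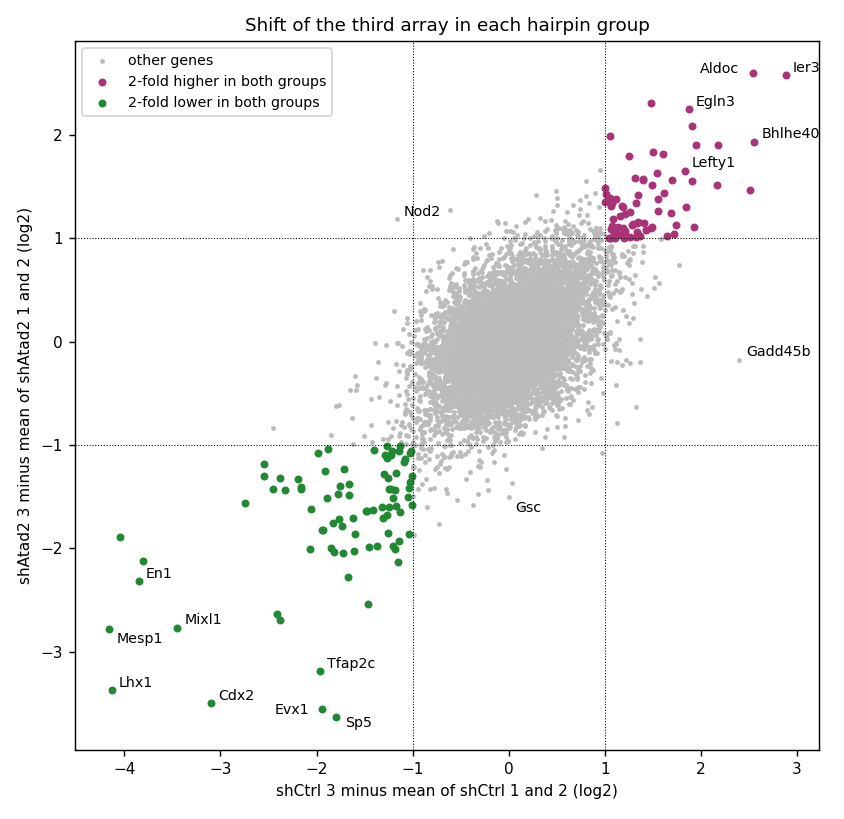
Each point is a gene, placed by its replicate 3 shift in shCtrl (horizontal, log2) and in shAtad2 (vertical, log2), with dotted lines at 2-fold. Genes 2-fold higher (72) and lower (87) in both groups fill the upper right and lower left corners, while Gadd45b, Nod2 and Gsc lie off the diagonal.

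Regulators of the primitive streak and of nascent mesoderm were among the lowest genes on both replicate 3 arrays. Of 30 measured genes of that list 14 were 2-fold lower in both groups, 1 (Lefty2) was higher, and 21 lay below both other arrays in both groups, with a median shift of -1.19 against -0.01 over all genes. Since the shift was what chose the arrays, nothing is read from the distance between these shares and those of all genes. Of the 30 genes, 6 were above background on neither replicate 3 array and were kept for their brighter levels on the others, and with no filter on dim probes the median was -0.83. Because the RNA is from whole cultures, fewer cells of a type and less RNA per cell cannot be told apart.

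Lhx1, a LIM homeobox factor of the streak and its anterior derivatives, read 9.36 and 9.27 on shCtrl 1 and 2 and 8.13 and 8.54 on shAtad2 1 and 2, but 5.18 and 4.96 on shCtrl 3 and shAtad2 3. The probe was above background on shCtrl 3 but not on shAtad2 3, and the level on the third arrays was at least 12.95-fold lower. Mesp1, the bHLH factor that marks early cardiac mesoderm, read 8.95, 8.79 and 4.71 on shCtrl 1, 2 and 3 and 7.61, 7.21 and 4.63 on shAtad2 1, 2 and 3. It was above background on neither replicate 3 array, so it was at least 8.51-fold lower there. Mixl1, a homeobox factor of mesendoderm, read 9.54, 9.41 and 6.02 in shCtrl and 7.68, 7.81 and 4.98 in shAtad2. It was above background on shCtrl 3 alone of the third arrays and was at least 8.33-fold lower there. For each of these genes replicate 3 lay below both other arrays in each group, which the count of shifted genes required.

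In the same list Evx1, a homeobox factor of the posterior streak, read 10.68, 10.90 and 8.85 in shCtrl and 9.50, 9.54 and 5.96 in shAtad2, and Sp5, a zinc finger factor and direct Wnt target, read 11.53, 11.48 and 9.71 in shCtrl and 11.24, 11.22 and 7.59 in shAtad2. For both genes the level on shAtad2 3 was the lowest of the 6. Further members, picked out after their values were seen, were Cyp26a1, which degrades retinoic acid (at least 3.47-fold lower), the apelin receptor Aplnr (at least 2.32-fold lower) and Fst, an inhibitor of activin (-1.18). The list was not lowered throughout. Eomes, a T-box factor that acts upstream of Mesp1, shifted by -0.62 in shCtrl and -1.21 in shAtad2, and Tbx6, Nodal and Bmp4 had mean shifts of -0.01, 0.03 and -0.03. Nodal, the inducer of the streak, read between 11.51 and 11.57 on all 6 arrays.

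**Figure D3:**
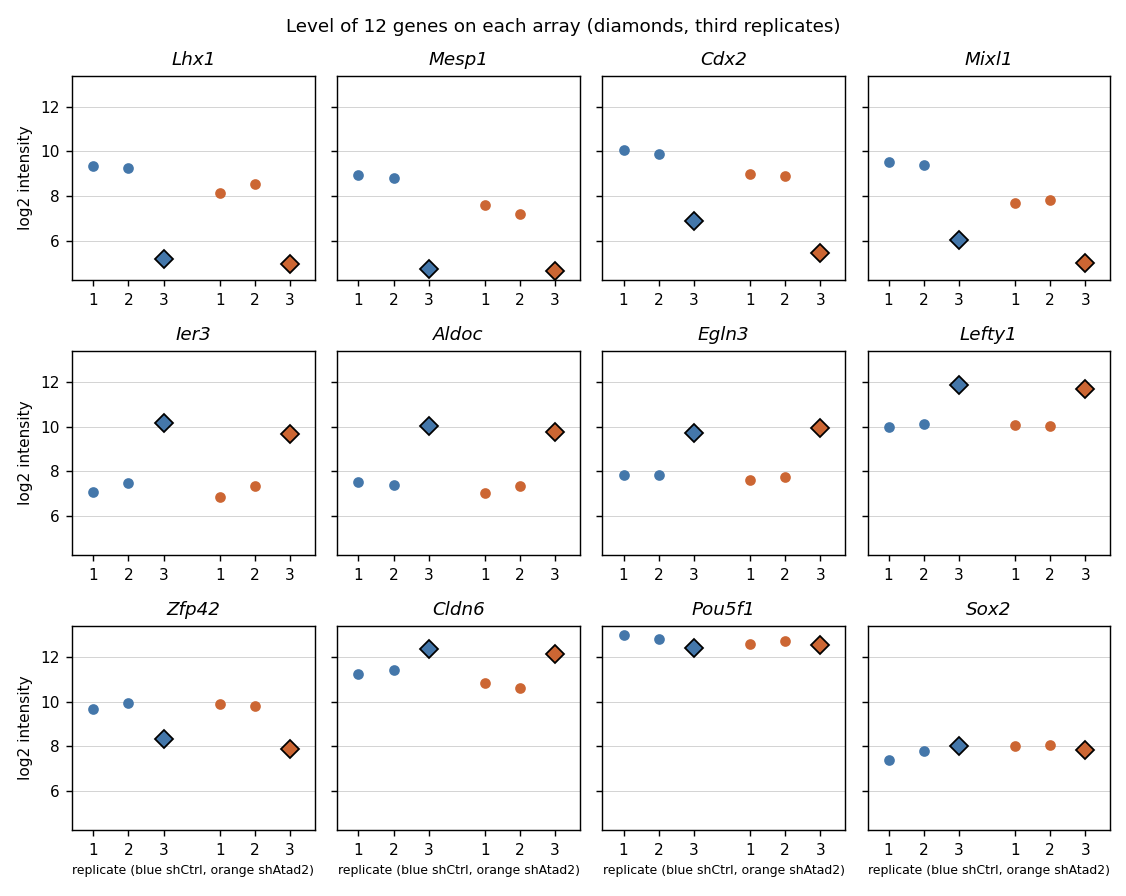
Log2 intensity of 12 genes on each array, shCtrl in blue and shAtad2 in orange, with the third replicates as diamonds. Lhx1, Mesp1, Cdx2, Mixl1 and Zfp42 are lower and Ier3, Aldoc, Egln3, Lefty1 and Cldn6 higher on both diamonds, while those of Pou5f1 and Sox2 lie close to the other arrays.

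Posterior patterning genes were next. Of 18 measured caudal and Hox homeobox genes 7 were 2-fold lower in both groups and none higher, and 16 lay below both other arrays in both groups (median shift -1.03). Cdx2, which specifies posterior identity and, in the blastocyst, trophectoderm, read 10.08, 9.90 and 6.89 in shCtrl and 8.99, 8.88 and 5.43 in shAtad2, a shift of -3.30 ± 0.14 (SE). Hoxb1 shifted by -1.92, Meis2, a cofactor of Hox proteins, by -1.68, and Hoxa7, above background on neither replicate 3 array, was at least 1.57-fold lower. Of the 18 genes, 4 were above background on neither replicate 3 array and were kept for their brighter levels on the others, and with no filter on dim probes the list median was -0.30.

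Wnt signalling genes were a further group. Of 18 measured ligands and targets 6 were 2-fold lower in both groups, none was higher, and 15 lay below both other arrays in both groups (median -0.91). The ligand Wnt3, which is needed for the streak to form in the mouse embryo, read 7.34, 7.73 and 5.47 in shCtrl and 7.02, 6.86 and 5.32 in shAtad2. Wnt3a was at least 2.36-fold lower on the third arrays, though shAtad2 2, at 4.88, was not above background either. The receptor Fzd10 (-1.52), the R-spondin Rspo3 (-1.57) and the secreted Wnt inhibitor Notum (at least 2.00-fold lower) were also lower, and Ctnnb1, which encodes the signal transducer beta-catenin, was level (0.14). Of the 18 genes, 6 were above background on neither replicate 3 array, and the median was -0.60 with no filter on dim probes. Among BMP targets Msx1 shifted by -1.82 and Id1 by -0.89, with 2 of 13 genes 2-fold lower (Msx1 and Gata3) and a median of -0.39. Of 16 measured genes of the FGF and ERK feedback list, Fgf17 alone was 2-fold lower in both groups (-2.01), and the median was -0.09. The ligand Fgf10, outside that list and above background on neither replicate 3 array, was at least 3.28-fold lower.

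Of the Nodal pathway list, 2 genes were 2-fold higher. Lefty1, a secreted Nodal antagonist and target of Nodal signalling, read 9.96, 10.11 and 11.87 in shCtrl and 10.06, 10.02 and 11.70 in shAtad2, a shift of 1.74 ± 0.12 (SE), and Lefty2, of the same family, shifted by 1.18. Gdf1, a ligand that pairs with Nodal, shifted by 0.74. Of the 15 measured genes 1 (Fst) was 2-fold lower, 5 lay above and 3 below both other arrays in both groups, and the list median was 0.01. Lefty2 and Fst are also in the streak list.

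Naive and general pluripotency genes differed in their counts. Of 23 measured naive genes 8 were 2-fold lower in both groups, none was higher, and 16 lay below both other arrays in both groups (median -0.68). Zfp42 (Rex1), a marker of the naive state, read 9.65, 9.92 and 8.34 in shCtrl and 9.88, 9.80 and 7.85 in shAtad2. Fbxo15 (-1.59) and Jam2 (at least 3.34-fold lower) shifted likewise, as did Esrrb (-1.45), Tfcp2l1 (-1.47), Klf4 (-1.33) and Tbx3 (-1.53), transcription factors of the naive network that were picked out after their values were seen. Nanog, on the same list, read between 12.67 and 13.08 on all arrays. None of the 18 measured general pluripotency genes was 2-fold shifted in both groups (median 0.05). Pou5f1 (Oct4) read between 12.38 and 12.98, Sall4 between 12.23 and 12.52, and Sox2 between 7.39 and 8.04 on the 6 arrays, and Utf1, at 1.00, came closest to the limit with a shift of 0.91 in shCtrl. The defining ES cell markers were thus present on every array.

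Epiblast genes were mixed. Of 23 measured genes of the formative and primed epiblast 2 were 2-fold higher, Car4 (1.24), a carbonic anhydrase, and the claudin Cldn6 (1.22), and the median was 0.02, with a sign that turned under other settings. Pou3f1 (Oct6) shifted by 1.53 in shCtrl and 0.62 in shAtad2, Otx2 by 0.57 and 1.08, and Fgf5 by 0.61 in both, each with both replicate 3 arrays above the rest of their group. The 2-cell-like genes Zscan4c (-2.53) and Tcstv1 (at least 1.95-fold lower) were lower, although Zscan4c belongs to a family of near-identical copies that a probe may not separate.

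**Figure D4:**
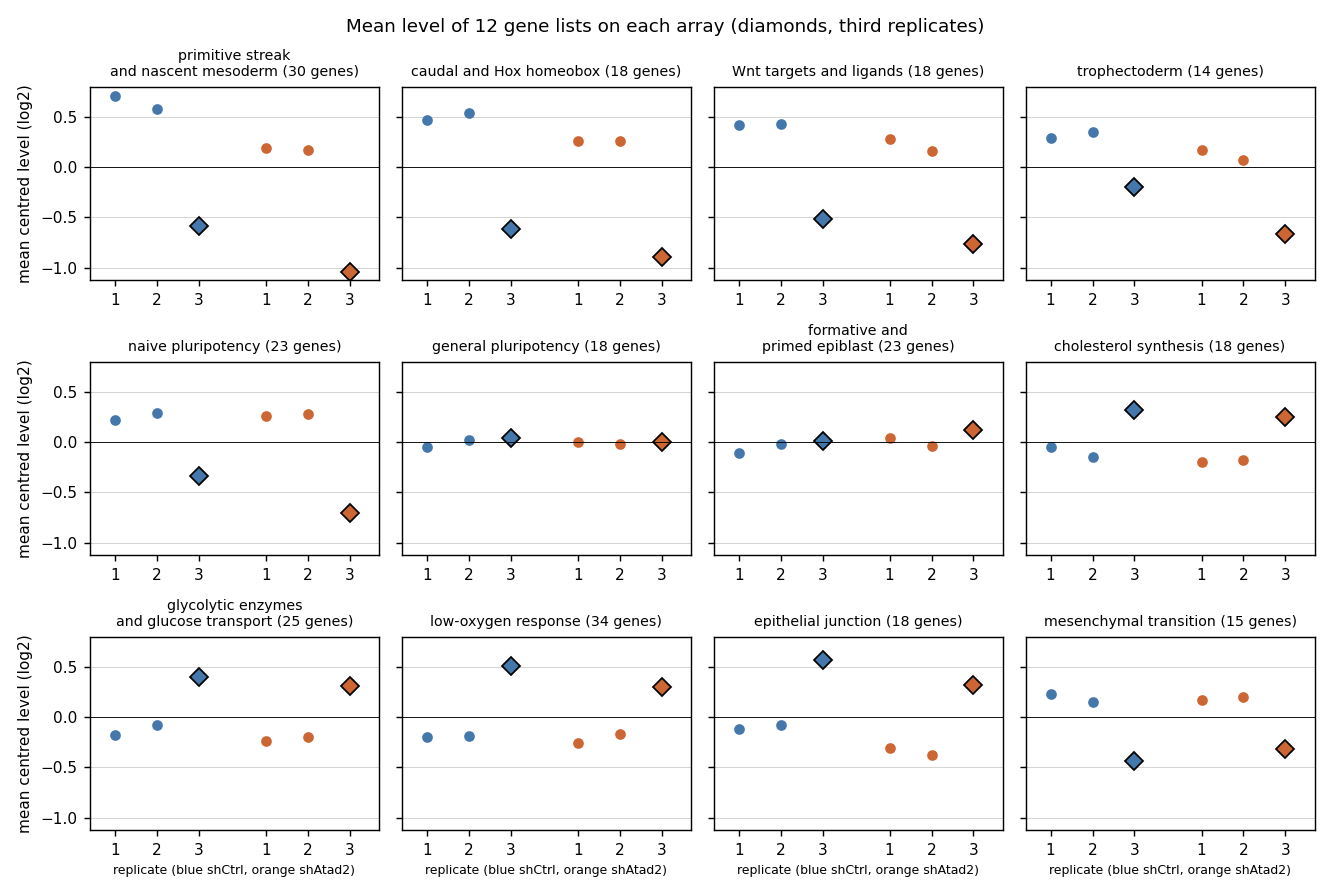
Mean level of the measured genes of 12 lists on each array, each gene first centred on its mean over the 6 arrays (log2, shCtrl in blue, shAtad2 in orange, the third replicates as diamonds). Streak, caudal, Wnt, trophectoderm, naive and mesenchymal lists are lower and glycolytic, low-oxygen, cholesterol and epithelial lists higher on both replicate 3 arrays, and the general pluripotency list is level.

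Targets of the low-oxygen response were prominent among the higher genes. Of 34 measured genes of that list 7 were 2-fold higher in both groups, none was lower, and 20 lay above both other arrays in both groups (median 0.38). Egln3, a prolyl hydroxylase that marks HIF for destruction and is itself a HIF target, read 7.80, 7.83 and 9.69 in shCtrl and 7.60, 7.75 and 9.93 in shAtad2, a shift of 2.06 ± 0.14 (SE), 4.18-fold. Bhlhe40, a transcriptional repressor induced by HIF, shifted by 2.25 and Ndrg1, a stress-responsive gene, by 2.04, with a second Ndrg1 probe at 1.80. Vegfa, the angiogenic growth factor (1.28), and Ankrd37, a HIF target (1.26), were picked out after their values were seen. Stc1, a secreted glycoprotein outside the list, shifted by 1.73. Hif1a itself shifted by 0.32 in shCtrl and -0.59 in shAtad2, and members below the 2-fold limit included Adm (1.01, below 1 in shAtad2), Egln1 (0.75), Bnip3l (0.07) and Kdm3a (0.00).

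Glycolytic genes were a related group. Of 25 measured genes 4 were 2-fold higher, none was lower, and 19 lay above both other arrays in both groups (median 0.34). Aldoc, an aldolase isozyme, read 7.52, 7.39 and 10.001 in shCtrl and 7.02, 7.33 and 9.77 in shAtad2, a shift of 2.57 ± 0.14 (SE), 5.94-fold. The enolase Eno2 shifted by 1.45, Pdk1, a pyruvate dehydrogenase kinase, by 1.41, and Pygl, the liver glycogen phosphorylase, by 1.03. Among abundant housekeeping enzymes Ldha (0.13) and Pgam1 (0.00) shifted little, while Pgk1, at 0.67, lay above the list median. The oxidative phosphorylation subunits had no 2-fold shifted gene among 43 and a median of -0.01.

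One form of the core motif bound by HIF, ACGTG, was searched in promoters, a feature the choice of arrays did not use. Other forms of it were not searched. Promoters were windows from 250 bases before to 50 after each RefSeq start (GRCm38.p6), and the letters ACGTG were counted on either strand (CACGT on the other), in 300 bases and with no correction for base composition. A match was found in 24 of 64 windows of 47 higher genes (37.5%), in 9 of 64 windows of 61 lower genes (14.1%) and in 25.2% of the 11139 windows of measured genes. Counted by gene, 44.7% of the higher, 14.8% of the lower and 29.4% of the measured genes had at least 1 match. The T-box core motif AGGTGTGA (TCACACCT on the other strand) was found in 1 of 64 windows of higher genes (1.56%) and 1 of 64 of lower genes (1.56%). In measured genes it was found in 98 of 11139 windows (0.88%). A single window allows no comparison of these shares. A match is a description of the letters and not a site of binding. The windows of 4 of the higher genes are shown because they hold the motif, in capitals, and differ in where it lies.

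The window of Egln3 is chr12:54203825-54204124 on the minus strand, with the motif 229 bases before the start, that of Aldoc chr11:78322823-78323122 on the plus strand with the motif 27 bases after it, that of Ier3 chr17:35821463-35821762 on the plus strand with the motif 202 bases before, and that of Ankrd37 chr8:45999801-46000100 on the minus strand with motifs 241 and 6 bases before.
Egln3: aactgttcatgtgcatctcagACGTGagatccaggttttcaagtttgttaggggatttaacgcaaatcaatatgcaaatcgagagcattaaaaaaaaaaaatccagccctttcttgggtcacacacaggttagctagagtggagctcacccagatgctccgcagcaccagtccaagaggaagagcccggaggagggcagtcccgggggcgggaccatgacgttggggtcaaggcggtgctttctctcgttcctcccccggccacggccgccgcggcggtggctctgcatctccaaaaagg
Aldoc: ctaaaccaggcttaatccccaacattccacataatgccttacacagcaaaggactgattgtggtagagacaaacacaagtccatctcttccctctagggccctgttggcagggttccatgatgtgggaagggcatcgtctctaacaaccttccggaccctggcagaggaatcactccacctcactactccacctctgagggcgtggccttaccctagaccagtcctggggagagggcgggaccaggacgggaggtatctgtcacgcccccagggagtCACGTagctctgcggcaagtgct
Ier3: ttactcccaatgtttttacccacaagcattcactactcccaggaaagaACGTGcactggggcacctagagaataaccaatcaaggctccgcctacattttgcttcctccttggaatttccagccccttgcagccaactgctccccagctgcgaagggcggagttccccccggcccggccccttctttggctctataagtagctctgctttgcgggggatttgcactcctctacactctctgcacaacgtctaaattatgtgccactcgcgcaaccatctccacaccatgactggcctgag
Ankrd37: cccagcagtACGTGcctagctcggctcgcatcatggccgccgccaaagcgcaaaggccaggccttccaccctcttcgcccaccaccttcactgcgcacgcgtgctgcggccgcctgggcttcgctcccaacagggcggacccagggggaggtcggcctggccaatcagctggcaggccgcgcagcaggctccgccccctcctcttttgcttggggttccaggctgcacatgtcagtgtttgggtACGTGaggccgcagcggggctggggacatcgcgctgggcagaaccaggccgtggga

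Ier3, a survival factor induced by stress and growth signals, had the highest shift of all genes counted. It read 7.07, 7.47 and 10.15 in shCtrl and 6.83, 7.33 and 9.66 in shAtad2, a shift of 2.73 ± 0.19 (SE), 6.63-fold. Other immediate early genes did not accompany it to that extent. Ier3 was the only 2-fold shifted gene of 23 (median 0.26), and Fos (-0.32) and Egr1 (0.02) were not higher. Yet 11 of the 23 lay above and 5 below both other arrays in both groups, beside 22.5% and 22% of all genes. The list median was 0.55 in shCtrl and 0.12 in shAtad2. Beside 1.48% of all genes, there was no 2-fold shifted gene among 26 genes of the integrated stress response, 17 endoplasmic reticulum chaperones and 15 cytosolic heat shock genes, and among 21 oxidative stress genes there was 1, Hmox1, which was lower (-1.20). With that background such counts say little of lists this short. Further genes among the highest were Anxa2, a membrane-binding annexin (2.00), Sncb, which encodes beta-synuclein (1.99), Rgs11, a regulator of G protein signalling (1.93), and Bst2, the antiviral protein tetherin (1.90).

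Sterol synthesis held no 2-fold shifted gene. Of 18 measured genes 14 lay above both other arrays in both groups, beside 22.5% of all genes, 1 (Ebp, -0.72) lay below, and the median was 0.48. Lss, which closes the sterol ring, shifted by 0.94, Fdps by 0.90 and Msmo1 by 0.85.

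Some epithelial genes were higher and the mesenchymal gene Vim lower. Of 18 measured epithelial junction genes 4 were 2-fold higher and none lower, and 14 lay above both other arrays in both groups (median 0.52). Rab25, a small GTPase of epithelial recycling endosomes, read 7.48, 7.54 and 9.11 in shCtrl and 6.38, 6.20 and 8.11 in shAtad2 (shift 1.71), and the tight junction claudins Cldn3 and Cldn4 shifted by 1.47 and 1.29. Cdh1, E-cadherin, shifted by 0.39. Of 15 measured mesenchymal genes 1 was 2-fold lower, none was higher, and 10 lay below both other arrays in both groups (median -0.63). Vim, which encodes the filament protein vimentin, read 8.91, 8.87 and 7.26 in shCtrl and 9.47, 9.37 and 7.71 in shAtad2, and Snai1 (-1.21) and Twist1 (-1.20), which repress E-cadherin, came next.

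Markers of other cell types gave no uniform direction. Of 19 measured endoderm genes 3 were 2-fold lower, Gata6 (at least 4.99-fold), Pdgfra (at least 3.27-fold) and Cxcr4 (-1.07), of which the latter pair are also made by mesoderm, while laminin and collagen genes were level and Apoe was at 1.07 (list median -0.01). Of 17 neurectoderm genes En1 (-3.08) and Irx3 (-1.46) were 2-fold lower and Nes was level (0.13), with a median of -0.42. Of 14 trophectoderm genes 5 were 2-fold lower, Cdx2, Tfap2c (-2.58), Gata3 (at least 2.46-fold lower), Esrrb and Tfap2a (-1.29). Cdx2, Gata3 and Esrrb are counted above too. The keratins Krt8, Krt18 and Krt19 shifted by 0.33, 0.63 and 1.12 (list median -0.51, or -0.10 with no filter on dim probes). Among 11 fibroblast genes Thy1 alone was 2-fold higher (1.12) and among 9 endothelial and blood genes Eng alone was lower (-1.20). The list mean ranged over the arrays from -0.15 to 0.09 for the fibroblast list and from -0.21 to 0.21 for the endothelial and blood list, in centred log2. The part of any of these cells in the shifts was not tested.

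Replication and mitotic genes had small median shifts. The median was -0.05 over 41 replication genes, of which Ccnd2 (-1.73) and Ccne2 (-1.16), cyclins of the G1 phase, were 2-fold lower. Of the 41, 17 lay below and 6 above both other arrays in both groups, beside 22% and 22.5% of all genes. Over 25 mitotic genes the median was 0.01 with none 2-fold shifted, and 4 lay below and 5 above. Ribosome biogenesis genes had no 2-fold shifted member among 32, but 19 lay below both other arrays in both groups, beside 2360 of all 10726 genes, and 1 above (median -0.21). Plk2, a kinase induced by stress and p53 (-1.89), was the only 2-fold shifted gene of 22 cell cycle inhibitors and p53 targets, with Cdkn1a (p21) at -1.12. In that list 12 genes lay below and 3 above both other arrays in both groups (median -0.23). None of 20 imprinted genes (median -0.10) and none of 11 Notch pathway genes (median 0.06) was 2-fold shifted in both groups. The measured Y-linked genes Uty and Eif2s3y, which tell male cells apart, shifted by -0.39 and -0.15. Uty was above background on neither replicate 3 array, so the size of its shift is uncertain. Of the 159 shifted genes, 95 were in none of the 34 lists.

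Whether both hairpin groups shifted alike was the comparison open to a test, since the difference between the groups' shifts did not choose the arrays. Among the 159 shifted genes the median absolute difference between the groups was 0.28, beside a median absolute shift of 1.47. The count required both groups to shift in the same direction, so no agreement is read from these values. Over all 10726 genes, replicate 3 lay beyond both others in the same direction in both groups for 4768 (44.5%). For 2013 genes (18.8%) the directions were opposite. In the limma interaction of hairpin and replicate 3 (two-sided, Benjamini-Hochberg adjusted over 10726 genes, 2 residual degrees of freedom), no gene passed (0%, smallest adjusted p = 0.319), and 1057 genes (9.85%) had an unadjusted p under 0.05, 505 with the more positive shift in shAtad2 and 552 in shCtrl. The count turned on the variance model. With an intensity trend and a robust prior in limma, 162 genes (1.51%) passed, 104 of them with the more negative shift in shAtad2, and 125 of the 162 had shifts of opposite sign in the groups, whereas 9 were also 2-fold shifted in both. Values without background correction gave 65 genes and the authors' processed values 48, and 46 genes were called by all of these. With the replicate number as a block no gene passed (smallest adjusted p = 0.477). The set of 46 was taken over the trend fit, the uncorrected values and the processed values, leaving out the first fit and the block. The processed values kept the rank order of the unnormalized ones on every array (Spearman rho = 1), so they are not separate evidence. Each interaction rests on a single replicate 3 array per group, so its p-value holds no spread among replicate 3 arrays, only that of replicates 1 and 2, and it does not show that the hairpins differ. The genes below are given by their values.

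The streak list had a median shift of -1.20 in shCtrl and -1.16 in shAtad2, and the Wnt list one of -0.82 and -0.88. The shift was the more negative in shAtad2 for 12 of 30 streak genes and 8 of 18 Wnt genes. Other lists were less even. It was the more negative in shAtad2 for 18 of 23 naive genes (list median -0.65 in shCtrl and -1.06 in shAtad2). The same held for 25 of 34 low-oxygen genes (0.62 and 0.40) and 18 of 22 cell cycle inhibitors and p53 targets (-0.15 and -0.38). Of the ribosome biogenesis genes it held for 9 of 32 (-0.25 and -0.16). Single genes had unequal values. For Sp5 the shift was -1.79 in shCtrl and -3.64 in shAtad2, a difference of -1.84 (limma adjusted p = 0.450). Of genes singled out after their values were seen, Gsc, a homeobox gene of the anterior streak, read 9.21, 9.09 and 9.15 in shCtrl but 9.13, 9.12 and 7.62 in shAtad2. Axin2, a Wnt feedback target, shifted by -0.32 and -1.48, and the streak ligand Fgf8 by 0.28 and -0.73. Each of these 4 genes was among the 46. Evx1 (-1.94 and -3.55) and Tfap2c (-1.96 and -3.19) were not among the 46.

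Other genes had the larger shift in shCtrl. En1, a homeobox gene of the midbrain and hindbrain, read 8.95, 8.90 and 5.08 in shCtrl and 10.27, 10.26 and 7.95 in shAtad2, a difference of 1.53 (limma adjusted p = 0.450), but a second En1 probe shifted by -1.90 and -2.12. The drop of Mesp1 cannot be compared between the groups, since it was above background on neither replicate 3 array. Defa31, above background on neither replicate 3 array and at least 6.03-fold lower there, and the pseudogene Pisd-ps2 (-3.80 and -2.12) belong to families of close copies and are uncertain. Gadd45b, a stress-induced gene, read 5.61, 5.77 and 8.09 in shCtrl and 6.37, 6.61 and 6.32 in shAtad2, a difference of -2.57 (limma adjusted p = 0.319). Peg3, an imprinted zinc finger gene, shifted by -1.77 in shCtrl and -0.62 in shAtad2. Core histone genes had a median shift of 0.26 in shCtrl and -0.13 in shAtad2 over 49 genes, and 14 of them had an unadjusted limma interaction p under 0.05, beside 9.85% of all genes. Many of their transcripts lack poly(A) tails and are near-identical, so their probes are uncertain.

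**Figure D5:**
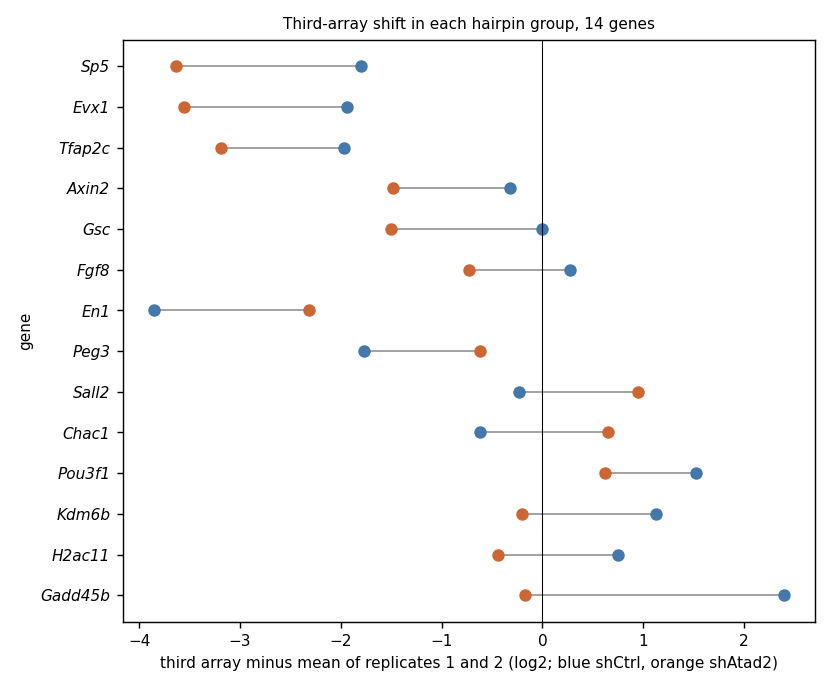
Replicate 3 shift (log2) in shCtrl (blue) and shAtad2 (orange) for 14 genes, joined by a line, chosen among genes with large differences after their values were seen. Sp5, Evx1, Tfap2c, Axin2, Gsc and Fgf8 are further down in shAtad2, and En1 and Peg3 in shCtrl.

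For the streak the order of the hairpins was the same on the third arrays as on the others. In the mean over the 30 streak genes, each centred on its mean over the arrays, shCtrl 1, 2 and 3 were at 0.71, 0.57 and -0.59 and shAtad2 1, 2 and 3 at 0.18, 0.16 and -1.04. Both replicate 3 arrays thus lay below all 4 others. Cdx2 was lower in shAtad2 than in shCtrl by 1.09, 1.02 and 1.46 log2 at replicates 1, 2 and 3. Mixl1 was lower by 1.86 and 1.60 at replicates 1 and 2, and at replicate 3 it was above background in shCtrl alone.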

How the data were processed

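Per the labels, total RNA of 6 samples was hybridised to Illumina MouseWG-6 v2.0 beadchips, and group and replicate number came from the titles. For 45281 probes the authors deposited unnormalized intensity beside its detection p-value, and also processed intensity in columns that share 1 distribution (median 141.1). The scanner software and the normalization of that table are not stated in the sources at hand. The unnormalized values went through neqc of limma 3.58.1 in R 4.3.3, which estimates background from the detection p-values (normexp), adds an offset of 16, equalises quantiles and takes log2. Probes with a detection p-value under 0.05 on at least 2 arrays were kept (19601), 2 being the number of replicate 3 arrays. Symbols came from the platform annotation (34885 probes with 1 symbol, 18 with several, 10378 with none) and were updated through Entrez identifiers for 34807. The brightest kept probe stood for each of 10726 genes, and 2907 kept probes lacking a unique symbol were set aside. The offset shrinks log2 shifts of dim genes, and the number of arrays limits the precision.

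The estimates and SE of the replicate 3 shift came from a limma fit with hairpin and replicate 3 as terms (n = 6 arrays), without a test, and the difference between hairpins from a fit with their interaction. The fit was checked on simulated data. The members and the 34 gene lists, compiled from general knowledge, were chosen with earlier results of these data known. Named genes were the 12 highest and 12 lowest genes shifted 2-fold in both groups (leaving out RIKEN clones and predicted loci), 7 marker genes, up to 3 members of each list in the direction of its median, the 6 genes with the smallest interaction p, and Atad2, Actb and Gapdh, not all of which are printed. Members given as exceptions within a list were picked after their values were seen. Deviations from the group mean correlated at 0.28, 0.26 and 0.56 between arrays of replicate number 1, 2 and 3, all above 0.1, so the replicate block was tried as an alternative. The main fits held no replicate block. Replicates 1 and 2 crossed correlated as well (0.28 and 0.32). The group mean held replicate 3, so a replicate 3 shift shared by the groups raises all of these values. No pairing of replicates 1 and 2 is read from them. Alternatives covered background correction, normalization, offset, the processed values, the filter, the variance model, the probe taken for a gene, the fold limit, the block and each array left out. Promoter windows came from RefSeq.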

Additional observations from a re-analysis of the deposited data

Results flagged for a closer look

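Nod2, a cytosolic receptor for bacterial peptidoglycan, was the only gene at least 2-fold shifted in opposite directions in the hairpin groups. It read 5.70, 5.82 and 4.59 on shCtrl 1, 2 and 3 and 5.10, 4.91 and 6.18 on shAtad2 1, 2 and 3, a difference of the shifts of 2.35. The limma interaction gave an adjusted p of 0.319, and an adjusted p of 0.00447 with the intensity trend, each with a single replicate 3 array per group. The probe was above background on 4 of the 6 arrays, with shAtad2 3 but not shCtrl 3 among them, so the size of the difference is uncertain.

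Among the 2907 probes above background that carry no single gene symbol and entered no comparison, 11 were 2-fold higher and 27 were 2-fold lower on the third array in both groups. They were not named.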

How the results depend on the processing

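The directions of the 51 named genes shifted in both groups were kept under every alternative that measured them, and those of 57 of the 61 other named genes. For the 51, leaving out a single array could not turn the direction. The count had required replicate 3 to lie beyond both others in each group, so nothing is read from that part. The list median kept its sign under every alternative in 22 of 33 lists, and the other 11 included the epiblast, endoderm, Nodal, histone and fibroblast lists. Counts fell when signal was compressed. The genes 2-fold higher in both groups numbered 13 without background correction, 33 with an offset of 50, 13 in the processed values, 367 at 1.5-fold and 9 at 3-fold, and the lower genes 21, 45, 22, 288 and 26, or 55 when above background on all 6 arrays. All of those 13 and 21 genes were among the 72 and 87. With single arrays left out, the counts ranged from 65 to 77 and from 87 to 92, and none could be given without a replicate 3 array.

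The correlation of the shifts was 0.59 without background correction, with an offset of 50, in the processed values and above background on all 6 arrays, 0.55 with median scaling, 0.58 above background on at least 3 arrays, 0.48 with no filter, and 0.525 to 0.537 with arrays left out. The interaction called 65 genes without background correction, 3 with an offset of 50, 48 in the processed values, 162 with the trend and 1057 at an unadjusted p under 0.05. With the replicate block it called 0 (smallest adjusted p = 0.477), and the block changed no call. It called 0 with any array of replicate 1 or 2 left out.

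Without background correction, with an offset of 50 and in the processed values, the list medians were -0.65, -0.90 and -0.67 for the streak, -0.35, -0.61 and -0.35 for caudal and Hox genes, -0.34, -0.52 and -0.34 for naive genes, -0.43, -0.59 and -0.45 for Wnt genes and 0.32, 0.39 and 0.33 for epithelial genes, and without correction and in the processed values 0.21 and 0.22 for low-oxygen and -0.27 and -0.27 for trophectoderm genes. Above background on all 6 arrays they were -0.92 for the streak, -1.24 for caudal, -0.86 for naive and -0.997 for trophectoderm genes, the last at -0.85 on at least 3 arrays. With no filter they were -0.83 for the streak, -0.30 for caudal, -0.60 for Wnt and -0.10 for trophectoderm genes. Over single arrays left out they ranged from 0.37 to 0.62 for low-oxygen genes, highest without shAtad2 3, from -1.06 to -0.64 for naive genes, lowest without shCtrl 3, and from 0.50 to 0.70 for epithelial genes, highest without shCtrl 3. The cause was not tested. Both replicate 3 arrays being single arrays of their group, the spread within them could not be measured.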
